A study of Mus musculus with 7 samples.

Results

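The genes of respiratory complex I were examined in mouse megakaryocyte-erythroid progenitors, the bone marrow cells that give rise to platelets and red cells, with Ssb1 and Ssb2 knocked out or intact. Ssb1 and Ssb2 are single-stranded DNA binding proteins that act in genome maintenance. Members were all genes of the array annotation whose symbol starts with Nduf, which gave 40 of 16593 named genes and 53 of 25697 probes. By role there were 33 subunits of the complex, 5 assembly factors with an Ndufaf symbol, Ndufa4, a protein since assigned to complex IV, and the pseudogene Ndufs5-ps. The progenitors were lineage-low, c-Kit-positive, Sca-1-negative and low for CD34 and CD16/32, and came from female C57BL/6 mice. There were 3 arrays from knockouts of both genes and 4 from controls labelled wild type. The age of the mice, how and when the genes were deleted, and whether each array is a separate mouse are not given in the labels, so the p-values measure the spread between these arrays, which may in part be technical. Each array measured cRNA from total RNA of sorted cells, and in such bulk samples fewer cells of a type cannot be told apart from less RNA per cell.

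Complex I is the entry point of the mitochondrial respiratory chain, where it oxidizes NADH, reduces ubiquinone and pumps protons across the inner membrane. Its catalytic core holds nuclear-encoded subunits of a matrix arm, which carry the flavin and the iron-sulfur clusters, and mitochondrially encoded subunits of a membrane arm, which pump protons. Accessory subunits surround this core, and assembly factors help to join the parts and are absent from the finished enzyme. Mitochondria of red cell precursors also supply the site of heme synthesis and are removed as red cells mature.

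The samples were checked first. Nabp2, the gene symbol for Ssb1, was lower in the double knockout by a log2 change of -2.04 (SE 0.186, limma adjusted p = 0.000203) at its brighter probe and of -0.95 at its dimmer one (adjusted p over kept probes = 0.00785), and by -1.32 in the processed table. The Nabp1 (Ssb2) probe was not above background on any array and checks nothing. All 6 progenitor markers with a probe (Gata1, Klf1, Epor, Itga2b, Gfi1b and Zfpm1) were detected on all 7 arrays, and the T cell markers Cd3e and Cd3g on none. Of the genes that should be absent or low by the sort, Cd34 was above background on 3 of 4 control and 2 of 3 knockout arrays. Fcgr3 was above background on none, and Ly6a had no probe. Raw signal averaged over probes came to 660 ± 9.60 (SD, n = 3) in the knockout and 515 ± 75.2 (SD, n = 4) in the controls. An exact permutation test of this difference, two-sided, gave p = 0.0571, and its 35 splits allow no p below 0.0286. Control array 4, at 615, was the control nearest in brightness to the knockout arrays, which lay between 651 and 670. Several marker lists moved with genotype: all 5 measured B-lineage markers fell, with summed raw signals of 793 to 901 on knockout and 1391 to 1961 on control arrays. Of 4 measured markers of later red cells 3 fell, with sums of 3057 to 4669 against 6286 to 8880, and of 4 neutrophil and monocyte markers 2 rose, with sums of 1419 to 2606 against 698 to 1053. Of 2 measured mast cell and basophil markers Cpa3 rose, with groups that overlapped, and Fcer1a was at -0.18 (limma adjusted p = 0.578). The sums of that list were 606 to 713 against 490 to 619, and its members Ms4a2 and Mcpt8 were not above background. Of all genes tested 12.8% were called lower and 14.4% higher. In raw signals the groups did not overlap for 43.9% of all genes tested that were higher in the knockout and 0.702% that were lower. Among the progenitor markers Itga2b rose by 1.99 on the log2 scale (limma adjusted p = 0.00133, sums of 30356 to 31211 against 21067 to 31736 for the list), while Gata1 was at -0.48 (adjusted p = 0.0524) and Klf1 at -0.32 (adjusted p = 0.0522), each with all knockout arrays below all controls, and the list's median was -0.0470. The part of these differences in the results below was not tested.

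Complex I genes were lower or not called in the double knockout, and none was called higher. A gene was called where limma's adjusted p, taken over all 7547 genes tested, was under 0.05, and each gene stood as its brightest probe among those above background on at least 3 arrays. Of the 39 members measured, 11 fell (28.2%), 0 rose and 28 did not pass the test. Across all genes tested 12.8% were called lower and 14.4% higher. At an unadjusted p under 0.05, 16 members were lower and 1 was higher, against 19.0% and 21.5% of all genes tested. The changes were small, between -0.86 and 0.37 on the log2 scale, with a median of -0.22 against 0.0114 for all genes tested, and no member reached a change of 1 on that scale (0 of 39, against 301 of all 7547 genes). Values are log2 signals after background correction and quantile normalization, so a fall is a fall against the bulk of genes on the same array. The groups did not overlap for 14 members that were lower in the knockout and 2 that were higher, against 18.1% and 20.3% of all genes tested. With knockout array 3 left out, 0 members passed limma's test (7.10% of all genes were called lower), and without knockout array 1 the 1 call was Ndufb2 (7.39% of all genes). Leaving out knockout array 2 or control array 1 gave 5 calls each, and leaving out control array 2 or 3 gave 4 each, all lower. In these fits 9.87%, 11.4%, 10.7% and 9.44% of all genes were called lower, shares near those of the 39 members. Without knockout array 1 or 3 the members' share was below that of all genes. It stayed well above that of all genes only without control array 4 (10 members, against 12.2% of all genes). The core subunit Ndufs1 was not above background on any array.

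**Figure D1:**
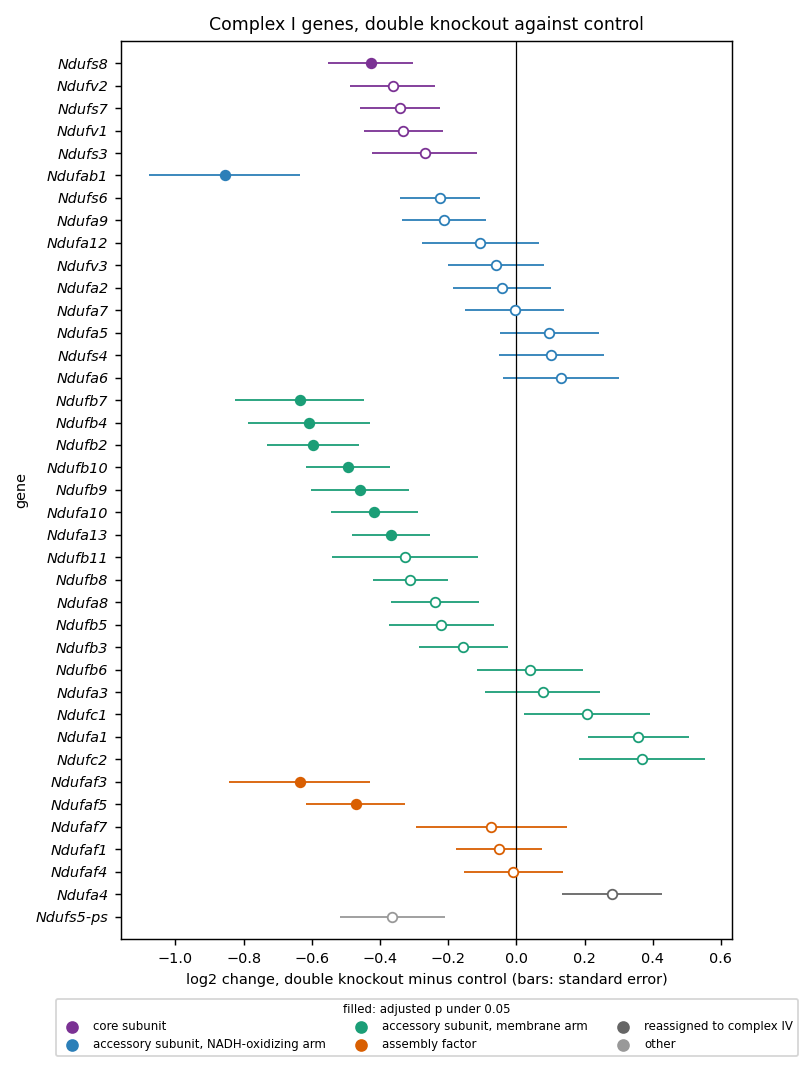
Log2 change of each measured complex I gene, double knockout minus control, grouped by role, with bars for the standard error of the limma fit (3 knockout and 4 control arrays). Filled points passed the test; all 11 of them lie below 0, between -0.86 and -0.37.

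In the raw signals no member was lower on every knockout array than on every control array. The groups did not overlap for 7 members, each with higher raw signal in the knockout (Ndufa1, Ndufa4, Ndufa5, Ndufaf1, Ndufaf4, Ndufc2 and Ndufs4), against 43.9% of all genes tested with non-overlapping higher raw signal and 0.702% lower. The summed raw signal of the 39 members was 252689, 248786 and 239324 on the knockout arrays and 256432, 196237, 161843 and 225413 on the control arrays. These sums overlapped, whereas the mean signal of all probes was higher on every knockout array than on any control array. For Ndufs8 the raw signals were 7647, 7822 and 7666 on the knockout arrays and 9793, 6992, 6387 and 8418 on the control arrays, so the groups separate only after scaling. Arrays scaled to the same median over all probes, a scaling that moved the median of all genes to 0.52, had 0 members lower and 3 higher (Ndufa1, Ndufc1 and Ndufc2), with 1.54% and 49.9% of all genes. Of the 11 that fell, 6 then lay above 0 (Ndufaf3, Ndufaf5, Ndufb2, Ndufb4, Ndufb9 and Ndufb10), by at most 0.20, and below the median gene. Arrays scaled to the median of probes detected on all 7 arrays, which moved that median to -0.14, had 20 members lower and 0 higher, with 23.6% and 10.3% of all genes. Relative to the median gene, 30 of 39 members were lower in the values reported here and 36 of 39 under either of these scalings. The scalings differ by a constant shift of all genes, so this count is the same under both by construction. With array brightness as a covariate limma called 0 members, but also only 0.133% of all genes lower and 0.557% higher, so this count says nothing about the members, of which 26 of 39 lay below the median gene.

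The promoters of 6 members are shown because members of one complex that fell and members that were not called can then be read side by side. They are 300-base stretches from 250 bases before to 50 bases after the start of the gene, from RefSeq (GRCm38.p6), and the table held 38 promoters of 36 measured members. Capitals mark matches, on either strand, to GCGCA and GCGC with any 1 base between them for the nuclear respiratory factor Nrf1, CCGGAAG for ETS factors such as Gabpa, and GCCATNTT for Yy1. No match in these 6 promoters overlaps another. Of measured members with exactly 1 promoter in the table, the 3 that fell and the 3 not called with the most matches were taken, ties going to the lower change. Those that fell are Ndufb4 (chr16:37654319-37654618 on the minus strand), Ndufs8 (chr19:3912725-3913024 on the minus strand) and Ndufb7 (chr8:83566508-83566807 on the plus strand). Those not called are Ndufs3 (chr2:90904672-90904971 on the minus strand), Ndufs6 (chr13:73328433-73328732 on the minus strand) and Ndufb5 (chr3:32736813-32737112 on the plus strand).
Ndufb4: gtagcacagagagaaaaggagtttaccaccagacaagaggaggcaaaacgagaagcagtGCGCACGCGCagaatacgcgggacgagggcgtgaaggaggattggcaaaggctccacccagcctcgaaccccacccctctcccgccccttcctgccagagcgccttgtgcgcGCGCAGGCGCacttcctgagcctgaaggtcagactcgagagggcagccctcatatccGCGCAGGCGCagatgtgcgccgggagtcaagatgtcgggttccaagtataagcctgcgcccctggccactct
Ndufs8: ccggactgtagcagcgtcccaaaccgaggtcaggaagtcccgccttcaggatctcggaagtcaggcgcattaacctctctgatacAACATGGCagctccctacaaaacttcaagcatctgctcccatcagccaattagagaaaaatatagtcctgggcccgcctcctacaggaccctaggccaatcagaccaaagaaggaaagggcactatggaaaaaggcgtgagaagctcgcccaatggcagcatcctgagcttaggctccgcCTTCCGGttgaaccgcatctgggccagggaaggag
Ndufb7: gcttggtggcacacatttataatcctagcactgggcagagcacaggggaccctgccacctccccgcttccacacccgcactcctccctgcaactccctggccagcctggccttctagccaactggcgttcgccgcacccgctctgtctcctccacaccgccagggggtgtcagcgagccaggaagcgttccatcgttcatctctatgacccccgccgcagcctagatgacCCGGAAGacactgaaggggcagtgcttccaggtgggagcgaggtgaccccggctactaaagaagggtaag
Ndufs3: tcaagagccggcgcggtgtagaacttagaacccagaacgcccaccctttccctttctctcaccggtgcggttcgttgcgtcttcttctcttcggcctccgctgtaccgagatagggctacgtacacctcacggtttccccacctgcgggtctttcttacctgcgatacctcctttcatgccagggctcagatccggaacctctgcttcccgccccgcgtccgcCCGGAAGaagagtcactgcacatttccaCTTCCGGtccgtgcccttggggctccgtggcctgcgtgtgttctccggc
Ndufs6: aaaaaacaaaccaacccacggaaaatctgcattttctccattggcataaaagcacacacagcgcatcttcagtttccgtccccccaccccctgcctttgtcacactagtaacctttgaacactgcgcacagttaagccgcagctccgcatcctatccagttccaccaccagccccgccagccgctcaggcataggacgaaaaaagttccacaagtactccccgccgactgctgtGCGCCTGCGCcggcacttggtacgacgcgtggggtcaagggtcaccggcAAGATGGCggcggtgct
Ndufb5: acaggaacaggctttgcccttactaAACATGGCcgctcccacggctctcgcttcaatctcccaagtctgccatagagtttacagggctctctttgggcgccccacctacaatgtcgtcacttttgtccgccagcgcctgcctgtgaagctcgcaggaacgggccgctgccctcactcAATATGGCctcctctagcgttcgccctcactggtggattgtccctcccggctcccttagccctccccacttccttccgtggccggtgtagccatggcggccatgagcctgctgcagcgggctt

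Ndufb4 carries 3 matches to the Nrf1 letters, which begin at positions -191, -79 and -22 from the start, and Ndufs6 carries 1, beginning at -16. Over all 38 member promoters, 8 (21.1%) held the Nrf1 letters, against 10.9% of promoters of genes tested and 4.60% of all promoters in the table. The Yy1 letters were found in 13 (34.2%), against 9.21% and 6.05%, and the ETS letters in 5 (13.2%), against 19.2% and 8.86%. Members that fell and members not called held the letters as follows: 2 of 10 promoters against 6 of 28 for Nrf1, 3 of 10 against 10 of 28 for Yy1, and 2 of 10 against 3 of 28 for ETS. The letters CACGTG (E-box) were in 3 of 38 and GGGCGG (Sp1) in 20 of 38, or 7.89% and 52.6%, against 10.3% and 62.6% of promoters of genes tested. A match is a description of these letters and not a site.

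Of the 5 core subunits measured, all of the matrix arm, 1 fell (20%, against 12.8% of all genes tested). All 5 had changes below 0, with a median of -0.34. Values here and below are log2 signals in array order, replicates 1 to 3 of the knockout and 1 to 4 of the control. Ndufs8, which holds iron-sulfur clusters on the path to ubiquinone, read 12.66, 12.68 and 12.70 on the knockout arrays and 13.31, 13.04, 13.13 and 12.94 on the control arrays. Its groups did not overlap, and the means were 12.68 ± 0.0194 (SD, n = 3) against 13.11 ± 0.159 (SD, n = 4), a 1.34-fold fall (log2 change -0.43, SE 0.124, adjusted p = 0.0313). The other 4 did not pass. Ndufv2, an iron-sulfur subunit near the flavin, read 13.04, 13.04 and 13.13 on the knockout arrays and 13.54, 13.53, 13.46 and 13.20 on the control arrays (log2 change -0.36, adjusted p = 0.0563). Ndufs7, whose cluster hands electrons to ubiquinone, read 13.11, 13.19 and 13.03 on the knockout arrays and 13.52, 13.48, 13.52 and 13.28 on the control arrays (log2 change -0.34, adjusted p = 0.0571). Ndufv1, which binds NADH and the flavin, read 13.07, 12.96 and 13.06 on the knockout arrays and 13.33, 13.22, 13.47 and 13.43 on the control arrays (log2 change -0.33, adjusted p = 0.0593). In all 3 each knockout array lay below each control array. Ndufs3, which contributes to the quinone-binding part of the arm, was at -0.27 (adjusted p = 0.218), with knockout array 2 at 10.87 apart from 11.44 and 11.37 on the others. Ndufs8, Ndufv2, Ndufs7 and Ndufv1 are all called lower without background correction, in the processed table and with a variance trend. The processed table closely matched the signals without background correction, so those settings are not separate checks. Ndufs8 is not called when any knockout array is left out or without control array 1 or 3.

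Accessory subunits of the NADH-oxidizing arm included 1 that fell (10%) and 0 that rose of 10 measured, with a median change of -0.0509. Of all genes tested 12.8% were called lower. The subunit that fell, Ndufab1, is found in both arms and was counted here by choice. Counted with the membrane arm instead, it leaves 0 of 9 that fell here (median -0.0416) and makes 8 of 18 there (median -0.32). Ndufab1 is the mitochondrial acyl carrier protein, which also serves fatty acid and iron-sulfur cluster synthesis. It read 6.82, 7.35 and 6.61 on the knockout arrays and 8.27, 7.68, 7.63 and 7.55 on the control arrays. All 3 knockout arrays were below the controls, with knockout array 2 nearest to them, and the mean was 1.81-fold lower (log2 change -0.86, SE 0.222, adjusted p = 0.0207). It was the lowest of the 39 changes with background correction, but uncorrected signals gave -0.51 and the processed table gave -0.46, and Ndufb7 was lower there, at -0.56 and -0.55. It was not called without knockout array 1 or 3. RefSeq also lists a pseudogene copy, Ndufab1-ps, so what the probe binds is uncertain. The remaining 9 ranged from -0.22 for Ndufs6 to 0.13 for Ndufa6, with Ndufa9 at -0.21, Ndufa12 at -0.11, Ndufv3 at -0.06, Ndufa2 at -0.04, Ndufa7 at -0.00505, Ndufa5 at 0.0962 and Ndufs4 at 0.10. Their groups overlapped in every case.

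Accessory subunits of the membrane arm held most of the falls: 7 of 17 fell (41.2%) and 0 rose, with a median of -0.31. The share of all genes tested called lower was 12.8%. Among the 10 Ndufb subunits, most of which sit in the distal part that pumps protons, 5 fell and 9 lay below 0, with a median of -0.39. Ndufb7, a subunit on the intermembrane side held by disulfide bonds, read 9.17, 9.27 and 9.25 on the knockout arrays and 10.21, 10.01, 9.88 and 9.36 on the control arrays, or 1.55-fold lower (log2 change -0.64, SE 0.188, adjusted p = 0.0336). Control array 4 was the control nearest to the knockout arrays, and of the fits that left out an array the call held in 1 of 7, the one without control array 4. Ndufb4 read 8.13, 8.40 and 8.11 on the knockout arrays and 9.24, 8.88, 8.59 and 8.57 on the control arrays (log2 change -0.61, SE 0.179, adjusted p = 0.0328). The groups were apart, but RefSeq lists the copies Ndufb4b and Ndufb4c, so what this probe binds is uncertain. Its call held in 4 of 7 such fits and was lost without knockout array 1 or 3 or control array 2. Ndufb2 read 9.59, 9.73 and 9.30 on the knockout arrays and 10.24, 10.19, 10.05 and 10.07 on the control arrays, or 1.51-fold lower (log2 change -0.60, SE 0.135, adjusted p = 0.0121). It had the smallest adjusted p among the members and was called in 6 of 7 fits that left out an array, the exception being knockout array 3. Ndufb10, another disulfide-bonded subunit of the intermembrane side, read 10.37, 10.47 and 10.27 on the knockout arrays and 10.97, 10.78, 10.99 and 10.72 on the control arrays (log2 change -0.49, SE 0.124, adjusted p = 0.0181), with all knockout arrays below all controls. It lost its call without knockout array 1 or 3. Ndufb9, which binds an acyl carrier protein through a LYR motif, read 10.95, 10.68 and 10.69 on the knockout arrays and 11.45, 11.33, 11.14 and 11.0017 on the control arrays (log2 change -0.46, SE 0.144, adjusted p = 0.0416). Knockout array 1 and control array 4 were the nearest arrays across the groups, and the call held in 1 of 7 such fits, the one without control array 4. Without the filter on dim probes Ndufb4, Ndufb7, Ndufb9, Ndufaf3 and Ndufaf5 were not called.

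Ndufa10, which resembles nucleoside kinases, read 12.33, 12.29 and 12.45 on the knockout arrays and 12.59, 12.76, 12.98 and 12.75 on the control arrays (log2 change -0.42, SE 0.127, adjusted p = 0.0379). Ndufa13, also known as Grim-19, read 13.84, 13.70 and 13.79 on the knockout arrays and 14.21, 14.07, 14.06 and 14.25 on the control arrays (log2 change -0.37, SE 0.114, adjusted p = 0.0398). Both kept the groups apart, but Ndufa10 was called in 1 of 7 fits that left out an array and Ndufa13 in 0. Of those not called, Ndufb8 came nearest, with 13.98, 13.92 and 13.89 on the knockout arrays and 14.32, 14.19, 14.29 and 14.15 on the control arrays (log2 change -0.31, adjusted p = 0.0617). Ndufb11 was at -0.33, Ndufa8 at -0.24, Ndufb5 at -0.22, Ndufb3 at -0.16, Ndufb6 at 0.0406, Ndufa3 at 0.0767 and Ndufc1 at 0.21. At the upper end stood Ndufa1, a small X-linked membrane subunit, with 13.38, 13.59 and 13.31 on the knockout arrays and 13.30, 13.20, 12.92 and 12.85 on the control arrays (log2 change 0.36, adjusted p = 0.101). Ndufc2 read 12.49, 12.42 and 12.40 on the knockout arrays and 12.37, 12.39, 11.82 and 11.71 on the control arrays (log2 change 0.37, adjusted p = 0.167). In both, each knockout array lay above each control array, the opposite order to the subunits that fell. Ndufa1 was called higher without background correction, in the processed table, which is not a separate check from it, and with a variance trend.

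**Figure D2:**
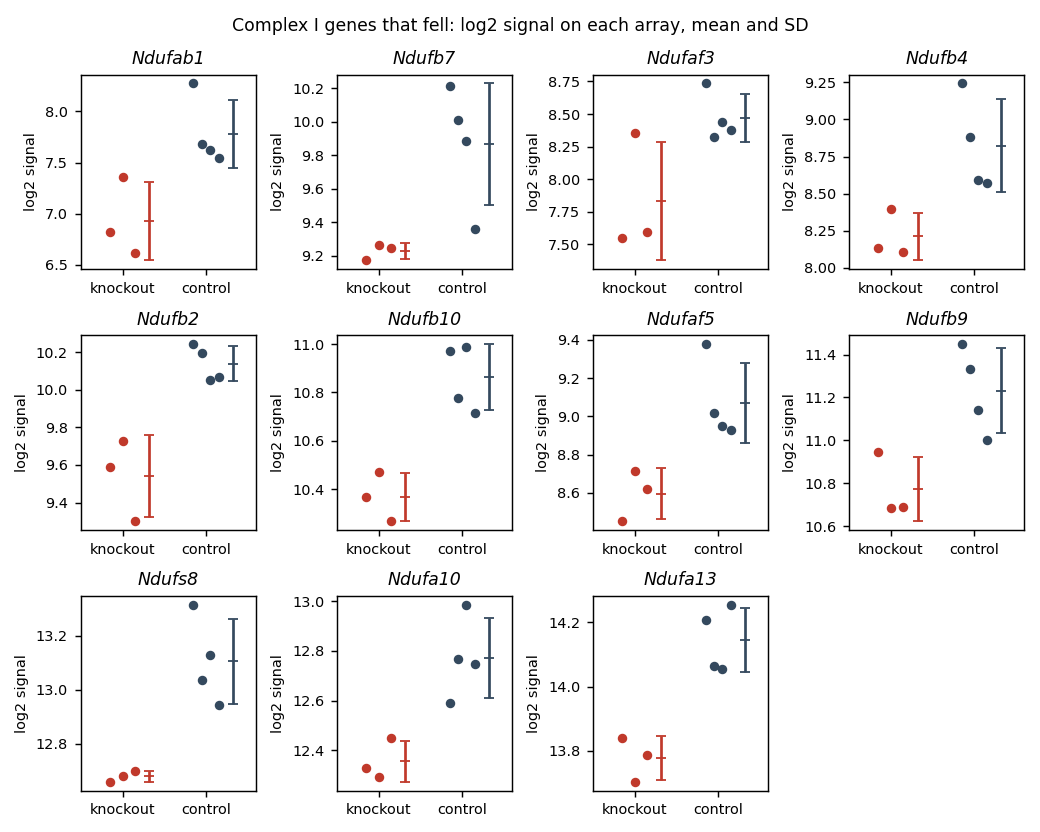
Log2 signal of the 11 complex I genes that fell, with points for the 3 knockout and 4 control arrays and bars for the mean and SD of each group; each panel has its own axis. Knockout arrays lie below control arrays in every panel except Ndufaf3, where knockout array 2 (8.36) lies above control array 2 (8.32).

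Of the 5 assembly factors 2 fell (40.0%, against 12.8% of all genes tested). The other 3 had changes between -0.0737 and -0.00967 that did not pass. Ndufaf3, which acts with Ndufaf4 early in building the quinone-binding part, read 7.54, 8.36 and 7.60 on the knockout arrays and 8.74, 8.32, 8.44 and 8.37 on the control arrays (log2 change -0.64, SE 0.206, adjusted p = 0.0466). Knockout arrays 1 and 3 were low and knockout array 2 lay among the controls, so the groups overlapped. Its call was lost when any array other than knockout array 2 was left out. Ndufaf5, which hydroxylates Ndufs7 during assembly, read 8.45, 8.71 and 8.62 on the knockout arrays and 9.38, 9.02, 8.95 and 8.93 on the control arrays (log2 change -0.47, SE 0.145, adjusted p = 0.0381). All knockout arrays lay below the controls, and another Ndufaf5 probe differed by -0.42 (adjusted p over kept probes = 0.0763), but among fits that left out an array the call was kept only without control array 4. The partner Ndufaf4 read 11.48, 11.49 and 11.36 on the knockout arrays and 11.70, 11.56, 11.40 and 11.16 on the control arrays (log2 change -0.00967, adjusted p = 0.965). Ndufaf1, which works on the membrane arm with Acad9, Ecsit and Tmem126b, read 11.04, 11.15 and 10.96 on the knockout arrays and 11.12, 10.95, 11.29 and 11.05 on the control arrays (log2 change -0.0518, adjusted p = 0.780). Ndufaf7, a methyltransferase, read 7.22, 6.17 and 6.82 on the knockout arrays and 7.03, 6.74, 6.69 and 6.78 on the control arrays (log2 change -0.0737, adjusted p = 0.821). Its knockout arrays spread over more than its controls, and its 2 other probes were not above background on any array.

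Subunits and assembly factors were then set against each other. Of 32 measured subunits 9 fell (28.1%), with a median of -0.23, and of 5 assembly factors 2 fell (40.0%), with a median of -0.0737. For all genes tested the share called lower was 12.8% and the median 0.0114. Relative to the control mean of each gene, the median over subunits was -0.207, -0.248 and -0.207 on the knockout arrays and 0.217, 0.0304, -0.0793 and -0.210 on the control arrays. Control array 4 thus lay at the level of the knockout arrays, and the groups overlapped. The same median over assembly factors was -0.0596, -0.111 and -0.148 on the knockout arrays and 0.242, -0.0691, -0.0569 and -0.0940 on the control arrays, also with overlap. The median of the subunits minus that of the assembly factors was -0.158 in the group comparison, and it was 0.0898 without knockout array 1 and 0.0775 with array brightness as a covariate. By role, knockout arrays stood at -0.402 to -0.305 and control arrays at -0.164 to 0.0869 for the core subunits, which did not overlap. For accessory subunits of the membrane arm the ranges were -0.320 to -0.263 and -0.218 to 0.235, also apart, and for those of the NADH-oxidizing arm -0.0664 to -0.0277 and -0.247 to 0.304, which overlapped. These differences between roles were not tested.

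**Figure D3:**
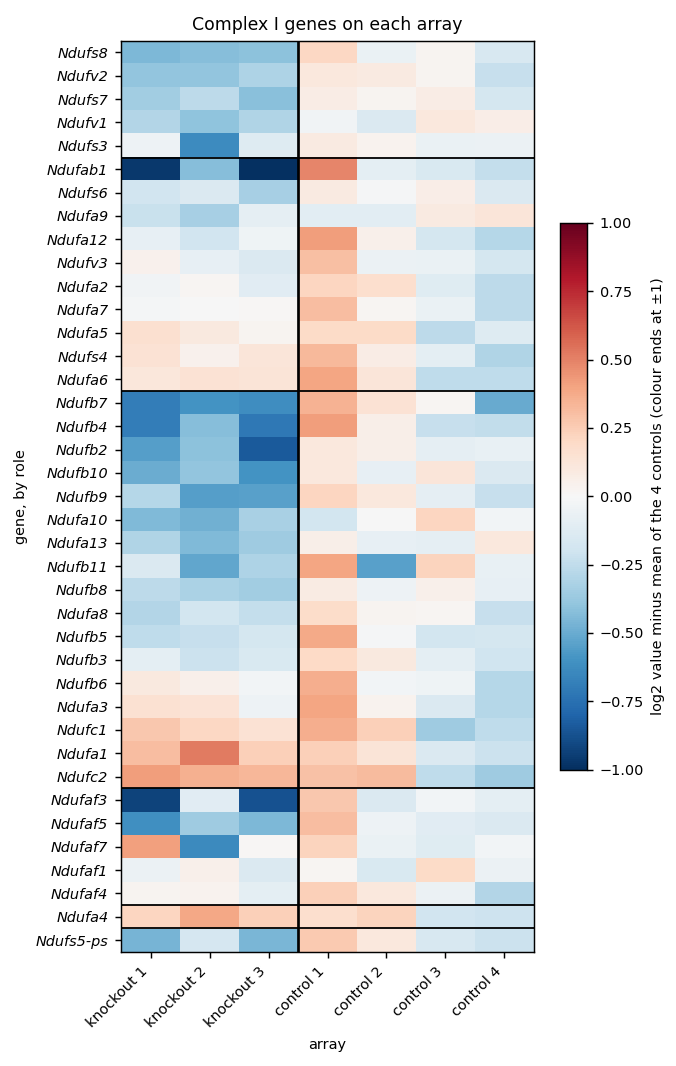
Log2 value of each measured complex I gene on each array minus the mean of the 4 control arrays, with rows grouped by role (core, NADH-oxidizing arm, membrane arm, assembly factors, Ndufa4, Ndufs5-ps). Control array 1 is the highest control for 31 of 39 genes and control array 4 the lowest for 25 of 39.

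Within the control group control array 1 was the highest for 31 of the 39 members (79.5%, against 27.5% of all genes tested), and control array 4 was the lowest for 25 (64.1%, against 21.4%). Others, such as Ndufa9, Ndufa10 and Ndufv1, followed another order. Control array 4 lay below the knockout mean for 16 of 39 members, control array 3 for 15, control array 2 for 9 and control array 1 for 3. With control array 4 left out 10 members were called lower, 8 of them among the 11, where 12.2% of all genes were called lower.

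**Figure D4:**
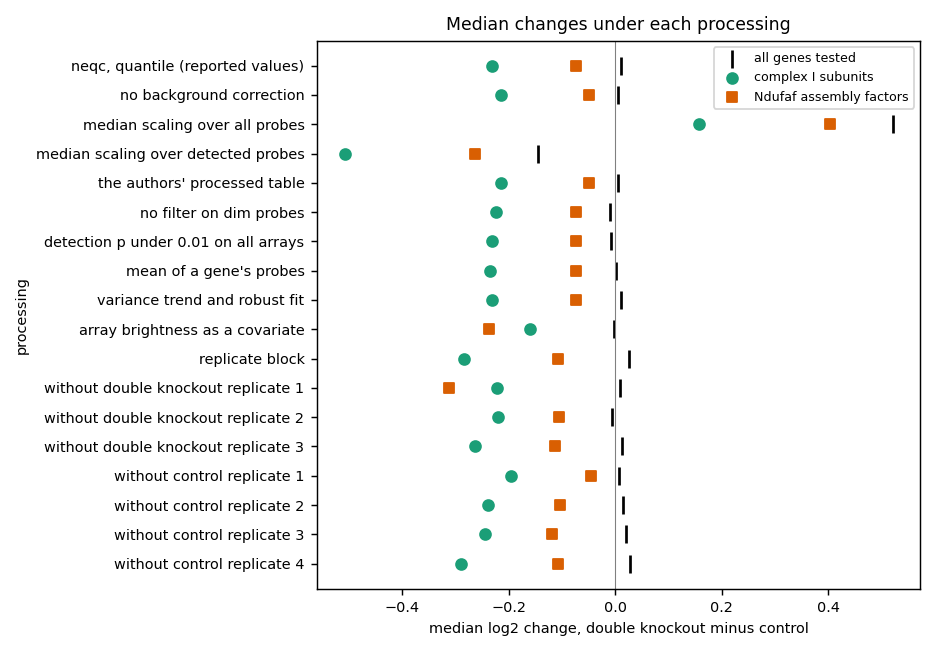
Median log2 change, double knockout minus control, of all genes tested (black bars), the complex I subunits (circles) and the Ndufaf assembly factors (squares) under each processing. The subunit median lies to the left of the median of all genes in every setting shown; it is above 0 only under median scaling over all probes, at 0.16, where all genes stand at 0.52.

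Several genes were read by more than 1 probe, which allowed a check within the gene. Of the 53 member probes 49 were kept, all of them detected on all 7 arrays, and 11 were called lower and 0 higher with p-values adjusted over the 10091 kept probes, of which 12.7% were called lower and 13.3% higher. These 11 belonged to the same 11 genes, and Ndufaf3 stood at the threshold there (adjusted p = 0.04996). Of 8 members with several kept probes, 4 had probes of opposite sign (50%, against 32.6% of all such genes). For Ndufa5 a probe with mean log2 signal 12.77 was at 0.0962 and one with 9.70 at -0.39 (adjusted p = 0.177). For Ndufb6 a probe at 13.04 gave 0.0406 and one at 8.80 gave -0.53 (adjusted p = 0.0672). The brighter Ndufa5 probe read 12.89, 12.82 and 12.76 on the knockout arrays and 12.92, 12.92, 12.47 and 12.60 on the control arrays, and the dimmer 9.67, 9.58 and 9.17 on the knockout arrays and 10.19, 10.13, 9.58 and 9.59 on the control arrays. The brighter Ndufb6 probe read 13.12, 13.07 and 13.0003 on the knockout arrays and 13.38, 12.9954, 12.98 and 12.74 on the control arrays, and the dimmer 8.62, 8.60 and 8.27 on the knockout arrays and 9.39, 9.06, 9.07 and 8.59 on the control arrays. The groups overlapped for all 4 probes, neither dimmer probe passed, and the gene value given above is that of the brighter probe. Ndufc1 had changes of 0.21 and -0.0968, from 12.81, 12.75 and 12.69 on the knockout arrays and 12.91, 12.78, 12.19 and 12.29 on the control arrays for the brighter probe and 11.21, 11.33 and 11.25 on the knockout arrays and 11.90, 11.36, 11.12 and 11.06 on the control arrays for the dimmer, with overlap in both. Ndufs4, a subunit whose loss in mice is a model of Leigh syndrome, had 4 probes at 0.10, -0.19, 0.0765 and -0.42, from the brightest to the dimmest. The brightest read 11.98, 11.88 and 11.96 on the knockout arrays and 12.16, 11.91, 11.74 and 11.54 on the control arrays, and the dimmest 10.93, 10.79 and 10.55 on the knockout arrays and 11.31, 11.25, 11.15 and 11.01 on the control arrays. The dimmest had each knockout array below each control array and an adjusted p of 0.0505, and the other 3 overlapped. In 6 of the 8 genes (75%) the dimmest probe lay below the brightest, against 54.5% of all genes with several kept probes. Which parts of the transcripts the probes bind was not examined.

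**Figure D5:**
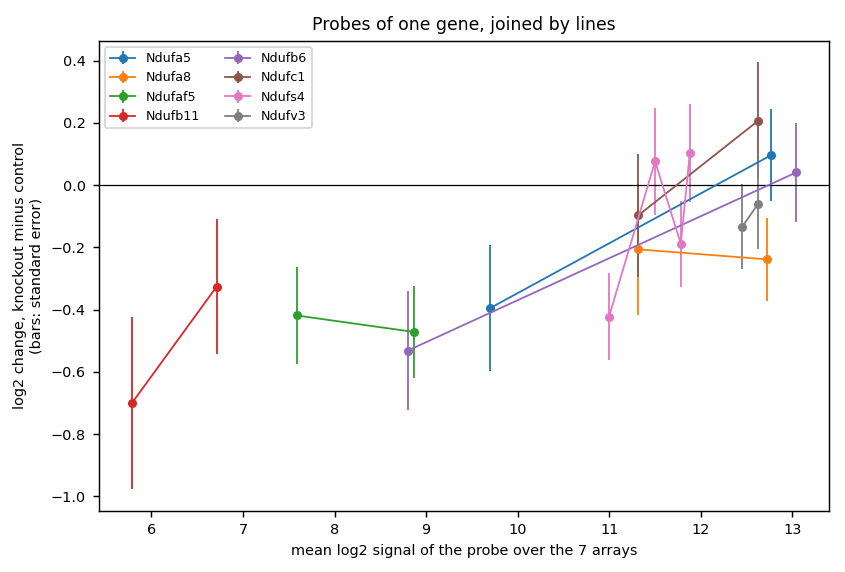
Log2 change of each kept probe, double knockout minus control, against the probe's mean log2 signal over the 7 arrays, for the 8 complex I genes with several kept probes; lines join the probes of a gene and bars show the standard error. The dimmer probes of Ndufa5 and Ndufb6 lie at -0.39 and -0.53, below the brighter ones at 0.0962 and 0.0406.

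Ndufa4 and Ndufs5-ps stood outside both classes, and neither was called. Ndufa4, now counted among complex IV proteins, read 13.83, 14.01 and 13.85 on the knockout arrays and 13.79, 13.84, 13.43 and 13.41 on the control arrays (log2 change 0.28, adjusted p = 0.182). Ndufs5-ps, annotated as a pseudogene of the subunit gene Ndufs5, read 11.17, 11.46 and 11.17 on the knockout arrays and 11.89, 11.74, 11.47 and 11.42 on the control arrays (log2 change -0.36, adjusted p = 0.106). The groups overlapped for both, and whether the Ndufs5-ps probe also binds Ndufs5 RNA was not examined.

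Other genes of complex I biology were mixed in direction. Among assembly factors without an Nduf symbol, 13 of 16 were measured, 3 fell and 1 rose, with a median of -0.0945. Of all genes tested 12.8% were called lower and 14.4% higher. Tmem126b, a membrane-arm assembly factor, fell (log2 change -0.84, SE 0.191, adjusted p = 0.0128), as did Dmac2, which acts on the distal membrane arm (log2 change -0.43, SE 0.122, adjusted p = 0.0280), and Tmem70, which serves the assembly of ATP synthase and complex I (log2 change -0.48, SE 0.136, adjusted p = 0.0283). Aifm1, a flavoprotein that supports import of complex I proteins, rose (log2 change 0.48, SE 0.131, adjusted p = 0.0251). Acad9 and Ecsit, the partners of Ndufaf1, were at -0.0920 and -0.32 and did not pass. Averaged over its probes Tmem70 was at -0.25 (adjusted p = 0.222) and Aifm1 at 0.35 (adjusted p = 0.0819). Of 7 fits that left out an array, the call held in 6 for Tmem126b (not without knockout array 3), 3 for Tmem70, 3 for Aifm1 and 2 for Dmac2. Under median scaling over all probes Tmem70 and Dmac2 were at 0.14 and 0.21, against a median gene at 0.52.

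Of 10 factors known to control respiratory genes 7 were measured. Of these 1 was called higher and 0 lower, against 14.4% and 12.8% of all genes tested. The transcription factor Myc rose (log2 change 0.85, SE 0.255, adjusted p = 0.0346), but it was above background on 1 of 4 control and 3 of 3 knockout arrays and so passed the filter through the knockout arrays. Its groups overlapped, with knockout array 2 at 5.38 and control array 2 at 5.55. The change was 0.29 without background correction (adjusted p = 0.0520) and 0.28 in the processed table, and the call held in 2 of 7 fits that left out an array (those without knockout array 2 or control array 2). It was lost without the filter (adjusted p = 0.0801), with the replicate block (0.120) and under median scaling over detected probes (0.232). Nrf1 was at -0.39 (adjusted p = 0.0517), Gabpa at -0.22, Esrra at 0.0566 and Tfam at 0.0117. The Ppargc1a and Yy1 probes were not above background on any array. Among 11 genes of ubiquinone synthesis and NADH supply, 2 fell and 2 rose, where 12.8% of all genes tested were called lower and 14.4% higher. Coq7 and Coq6, hydroxylases of ubiquinone synthesis, fell (log2 change -1.06, SE 0.159, adjusted p = 0.00253, and log2 change -0.53, SE 0.114, adjusted p = 0.0102). The prenyltransferase Coq2 rose (log2 change 0.39, SE 0.117, adjusted p = 0.0336), as did Idh3b, a subunit of the citrate cycle enzyme that makes NADH (log2 change 0.37, adjusted p = 0.0489), which was named after its value was seen. Coq7 and Coq6 were called in all 7 fits that left out an array, and Coq2 in 1 of 7, the one without control array 4. Under median scaling over detected probes Coq2 was at 0.19 (adjusted p = 0.262), and under median scaling over all probes Coq7 was at -0.42 (adjusted p = 0.117) and Coq6 at -0.0270 (adjusted p = 0.935). Mdh2, Idh3a, Idh3g and Dld lay between -0.20 and 0.0337 and did not pass.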

How the data were processed

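RNA of sorted progenitors was amplified to cRNA carrying 1 label, biotin, per the labels. The platform of the probe annotation is Illumina's MouseRef-8 v2.0 array. GenomeStudio is named in the submitters' processing notes, without a version or settings. The authors deposited the linear intensity of each probe in a table they call non-normalized, and its values, all well above 0, show no background subtraction. A detection p-value stands beside each intensity, per the file headers, and was taken as a comparison with the array's negative control probes. They also deposited a processed log2 table, which was used as an alternative. It matched quantile-normalized, probe-centred log2 signals without background correction (median correlation per probe 0.999972) in the direction of the signals. The processed table and the alternative without background correction are therefore not separate checks. Its column medians were 0.00164 to 0.00513, and its baseline is unknown. Neither slide nor scan, the possible batches, is named in the labels or headers.

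Signals were normalized with neqc in limma 3.58.1 (R 4.3.3), with background from detection p-values, an offset of 16, quantile normalization and log2. Probes with detection p under 0.05 on at least 3 arrays were kept (10091), and each of 7547 genes stood as its brightest kept probe. Symbols came from the platform annotation: 23978 probes had 1 symbol, 0 had several and 1719 had none, and 0 changed against RefSeq GRCm38.p6. Groups were compared with lmFit and eBayes (two-sided), and p-values were adjusted over all genes by Benjamini and Hochberg's method. The number of arrays limits the precision, and no interval beyond the standard errors is given.

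Members, lists and the rule for named genes were chosen with earlier results of these data known. The rule gave values on every array to members called, the 4 uncalled with the smallest p, all Ndufaf genes and genes whose probes differed in sign, plus changes for core subunits and up to 8 called genes of the other lists. Values of Ndufa1, Ndufc2, Ndufa4 and Ndufs5-ps were added after they were seen. Alternatives were no background correction, 2 median scalings, the processed table, no or a stricter filter (detection p under 0.01 on all 7 arrays), averaging all kept probes of a gene, robust fitting with a variance trend, array brightness as a covariate, the replicate number as a block, and leaving out each array.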

Additional observations from a re-analysis of the deposited data

How the results depend on the processing

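The number of complex I genes called lower (11) was 0 with array brightness as a covariate, 0 under median scaling over all probes, 20 under median scaling over detected probes, 5 with the replicate block, and between 0 and 10 when an array was left out. In these fits 0.133%, 1.54%, 23.6%, 8.36% and 7.10% to 12.2% of all genes were called lower. The number called lower was 16 without background correction, 16 in the processed table and 16 with a variance trend. There 14.6%, 14.6% and 14.9% of all genes were called lower. It was 9 without the filter, 15 with the stricter filter and 11 when a gene's probes were averaged, against 5.01%, 18.2% and 12.7%. The same 11 genes were called lower in all of these settings except without the filter, where 6 of them were. The number called higher (0) was 3 under median scaling over all probes, where 49.9% of all genes were called higher. It was 1 without background correction, in the processed table and with a variance trend. In the first and second of these 15.7% of all genes were called higher, and with a variance trend 1208 of 7547 were. The number of members called higher was 0 in all fits that left out an array, where 7.61% to 14.0% of all genes were higher. The subunits' median change (-0.23) became 0.16 when scaled over all probes, -0.51 when scaled over detected probes, and -0.29 to -0.20 without an array. That of the assembly factors (-0.0737) became 0.40 and -0.26 under these scalings and, with array brightness, -0.24, and -0.31 to -0.0451 without an array. Subunits minus assembly factors (-0.158) was -0.244 under both median scalings, 0.0775 with array brightness and -0.18 to 0.0898 without an array. The number of other complex I genes called in either direction was 9, from lists with 13, 7 and 11 measured genes. Of all genes 12.8% were lower and 14.4% higher. This number was 0 with array brightness (0.133% and 0.557% of all genes) and 4 with the replicate block (8.36% and 9.59%). Without an array it was 3 to 9, where 7.10% to 12.2% of all genes were lower and 7.61% to 14.0% higher. Called genes that changed sign did so under median scaling over all probes: Ndufaf3 at 0.0333, Ndufaf5 at 0.20, Ndufb10 at 0.0353, Ndufb2 at 0.0138, Ndufb4 at 0.0635, Ndufb9 at 0.00241, Tmem70 at 0.14 and Dmac2 at 0.21. That scaling and the scaling to detected probes differ by a constant shift, so differences between genes are the same under both by construction. With fewer arrays fewer genes of all kinds were called, and why members lost their calls was not tested. Replicate numbers are shared between groups, but deviations of same-numbered arrays correlated at -0.169, -0.0160 and 0.0277 across genes, so the numbers were not taken as pairs. Of the 11 genes, 5 stayed lower under the replicate block (Ndufab1, Ndufb2, Ndufb4, Ndufb7 and Ndufb9).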

Other observations

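Most members gave bright signals. With genes ranked by mean log2 signal into 4 classes of equal size, 31 of the 39 members lay in the brightest class. There 5 of the 31 fell, a share near the 14.3% of all genes of that class called lower. The members' median change in that class was -0.16. Of the 4 members in the next class, all 4 fell (Ndufb2, Ndufb4, Ndufb7 and Ndufaf5), against 15.7% of its genes. Of the 4 in the class below that, Ndufab1 and Ndufaf3 fell and Ndufb11 and Ndufaf7 did not pass, against 13.6%. No member lay in the dimmest class. Whether probe brightness has a part in which members were called was not tested.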
